A study of Homo sapiens with 12 samples.

Results

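The 10 genes described here control the G1 phase of the cell cycle. Among them are the D-type cyclins CCND1, CCND2 and CCND3, their kinases CDK4 and CDK6, and the E-type cyclins CCNE1 and CCNE2. The set also holds the inhibitor CDKN1B, RB1, on which the kinases act, and E2F1, the transcription factor that RB1 restrains. All were taken by gene symbol from the array annotation, 10 of 22411 named genes, with the 316 of 913055 probe sets that carry their symbols. No cluster or probe set of theirs carried a further symbol. The set was selected on the CCND1 signal in this same contrast, which was known to be lower in the knockdown, so the CCND1 values below are a description with no test.

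The cells were HEK293T, derived from human embryonic kidney and expressing SV40 large T antigen, into which lentivirus had integrated under puromycin selection. In the control line (SCR) the short hairpin RNA was a scrambled sequence, and in the other it was directed at PPIL3, a nuclear cyclophilin found in the spliceosome. Each line was read on 3 arrays of the Affymetrix Human Transcriptome Array 2.0, so 6 arrays are compared. Sample titles and source names number the PPIL3 hairpin differently, and no label says whether the replicates were separate cultures, so the p-values speak only of spread among these arrays, which may be technical. The sample titles give each group 1 hairpin label, so the effect of the hairpin and the history of the line cannot be told apart.

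D-type cyclins are made in response to growth signals and bind CDK4 or CDK6. The active kinases phosphorylate the retinoblastoma protein RB1, which then lets go of E2F factors such as E2F1, and these switch on the E-type cyclins and the genes of DNA synthesis. CDKN1B, also called p27, holds back the kinase that the E-type cyclins activate. In HEK293T cells the large T antigen and the adenoviral E1A protein bind RB1 and its relatives. Cyclin D1 is made in 2 splice forms, of which the form named b keeps intron 4 sequence and ends differently from form a.

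All values are log2 RMA signals as deposited, and differences are knockdown minus SCR, with a mean of at least 5 required for a test. The median gene signal of the arrays lay between 6.63 and 6.67. PPIL3 itself was 7.75, 7.81 and 7.81 on the SCR arrays against 7.30, 7.26 and 7.28 on the knockdown arrays (limma adjusted p = 0.0050; 0.0533 without SCR array 2 and 0.0798 without SCR array 3). All 9 markers of HEK293T cells and kidney epithelium had a mean of at least 5. Their mean level was 8.95 to 8.97 on the SCR arrays against 9.11 to 9.17 on the knockdown arrays, and NEFM (0.70) and EPCAM (0.64) rose past the threshold (EPCAM adjusted p = 0.0262, and 0.0643 with the replicate number as a block; 0.0703 to 0.161 without SCR array 1, 2 or 3 or knockdown array 2 or 3; NEFM adjusted p = 0.0049, and 0.0798 without SCR array 3). Of these 9 markers 5 were above 0 and 4 below, with a median of 0.05. KRT8 was at 0.30 and VIM at -0.14, both without overlap between the groups, and KRT18, CDH2 and PAX2 were also below 0. The part of these markers in the results below was not tested. Fibroblast markers averaged 6.10 to 6.19 and immune cell markers 6.09 to 6.21 over all arrays, and 0 of the 7 tested passed.

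CCND1, which encodes cyclin D1, was lower on the knockdown arrays. Its gene-level signal (cluster TC11000718.hg.1, on chromosome 11) was 9.93, 9.76 and 9.73 in SCR against 9.45, 9.39 and 9.43 in the knockdown. The highest knockdown array lay below the lowest SCR array, and the widest gap within a group was between SCR array 1 and the other SCR arrays. The group means were 9.81 ± 0.106 and 9.42 ± 0.034 (SD, n = 3), a difference of -0.38 (SE 0.055) or -23.4%. Leaving out each array in turn gave between -0.42 and -0.32. In bulk RNA of this kind, fewer cells that express a gene and less RNA per cell cannot be told apart.

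CCND2, which encodes cyclin D2, differed by nearly as much. It was 10.24, 10.28 and 10.31 in SCR against 10.01, 9.77 and 9.92 in the knockdown, with no overlap between the groups. The difference was -0.37 (SE 0.062, 95% interval -0.52 to -0.23), or -22.9%. This missed the threshold of 0.05 over all genes (limma adjusted p = 0.0636). Limma's adjusted p was 0.0975 with the replicate number as a block and 0.0586 to 0.295 when each array was left out. CCND2 passed when the mean of the exon probe sets stood for the gene (-0.38, adjusted p = 0.0068) and when only genes with a mean of at least 6 were tested (adjusted p = 0.0486). With exon means a larger share of all genes was called than in the main fit. The share called with a mean of at least 6 is not given here.

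CCND3, the third D-type cyclin, had groups that overlapped. Its signal was 8.14, 8.10 and 8.12 in SCR against 8.13, 8.10 and 8.11 in the knockdown, and the arrays of both groups were interleaved. The difference was -0.0027 with a 95% interval of -0.07 to 0.06 (limma adjusted p = 0.976), so a difference of the size measured for CCND1 or CCND2 lies outside it. Its sign turned when SCR array 1 or knockdown array 2 was left out.

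**Figure D1:**
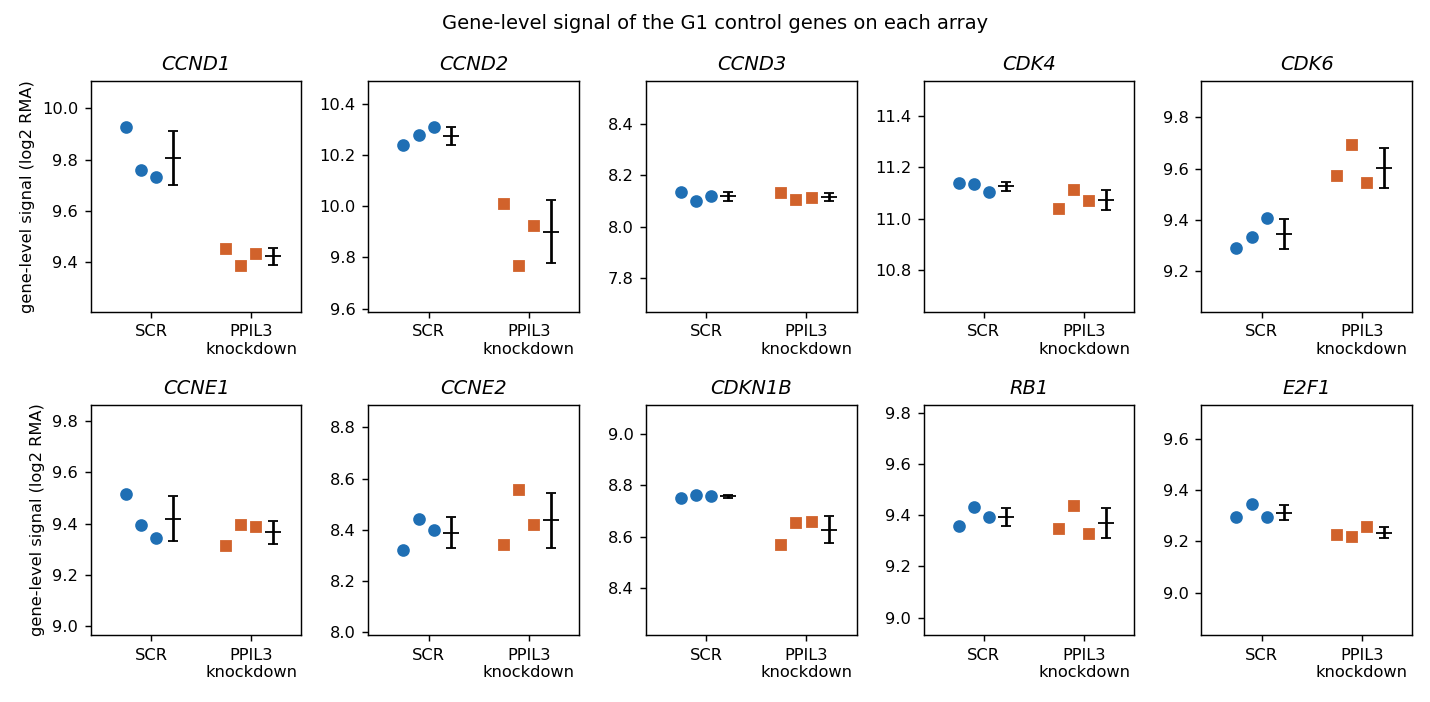
Gene-level log2 RMA signal of the 10 genes on each array, 1 panel per gene, with 3 SCR and 3 PPIL3 knockdown arrays as points and group means as bars. The groups do not overlap for CCND1, CCND2, CDKN1B and E2F1, which are lower in the knockdown, and for CDK6, which is higher.

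Of the kinases, CDK6 was higher on every knockdown array. It was 9.29, 9.34 and 9.41 in SCR against 9.57, 9.69 and 9.54 in the knockdown, so the groups did not overlap. The difference was 0.26 (SE 0.050, 95% interval 0.14 to 0.38), or 19.7%, which missed the threshold (limma adjusted p = 0.0886). Limma's adjusted p was 0.116 with the replicate number as a block and 0.113 to 0.337 when each array was left out. With the mean of its exon probe sets as the gene level CDK6 passed, at 0.25 (adjusted p = 0.041), where a larger share of all genes was called than in the main fit. CDK4, the other D-type cyclin kinase, was 11.14, 11.14 and 11.11 in SCR against 11.04, 11.11 and 11.07 in the knockdown. Those groups overlapped, at knockdown array 2 and SCR array 3, and the difference was -0.05 (adjusted p = 0.464).

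The E-type cyclins overlapped between the groups. CCNE1 was 9.52, 9.40 and 9.35 in SCR against 9.31, 9.40 and 9.39 in the knockdown, a difference of -0.05 (limma adjusted p = 0.690). CCNE2 was 8.32, 8.44 and 8.40 in SCR against 8.34, 8.55 and 8.42 in the knockdown, a difference of 0.05 (adjusted p = 0.768) that turned to -0.0086 without knockdown array 2. In CCNE1 the highest array was SCR array 1, and in CCNE2 it was knockdown array 2.

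CDKN1B was slightly lower in the knockdown, at 8.75, 8.76 and 8.76 in SCR against 8.57, 8.65 and 8.66. The SCR arrays lay close together and all knockdown arrays were below them, with array 1 the lowest. The difference was -0.13 (SE 0.034, 95% interval -0.21 to -0.05), and it missed the threshold (limma adjusted p = 0.150).

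RB1 was 9.36, 9.43 and 9.39 in SCR against 9.34, 9.44 and 9.33 in the knockdown, with overlapping groups and a difference of -0.02 (limma adjusted p = 0.828). E2F1, the transcription factor it restrains, was 9.30, 9.35 and 9.29 in SCR against 9.22, 9.22 and 9.26 in the knockdown. All knockdown arrays of E2F1 lay below all SCR arrays, by a narrow margin. The difference was -0.08 (SE 0.029, 95% interval -0.15 to -0.01; adjusted p = 0.276).

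Counted together, 0 of the 9 genes besides CCND1 passed limma's test at an adjusted p under 0.05, where 0.688% of all 19912 genes tested did (137 genes, 0.131% lower and 0.557% higher, or 32 genes with the replicate number as a block). An unadjusted p under 0.05 was found for 4 of 9 (CCND2, CDKN1B and E2F1 lower, CDK6 higher), against 15.4% of all genes (6.62% lower and 8.82% higher). The groups did not overlap in those same 4 genes, 3 lower and 1 higher, against 20.3% of all genes (9.33% lower and 11% higher). The median difference of all 10 genes was -0.05, and that of all genes tested was -0.0045. Array weights, which let the arrays count unequally, called 6 of the 9 (CCND2, CDK4, CDK6, CDKN1B, RB1 and E2F1) along with 5967 genes in all. These weights ran from 0.225 for knockdown array 2 to 4.84 for knockdown array 3.

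**Figure D2:**
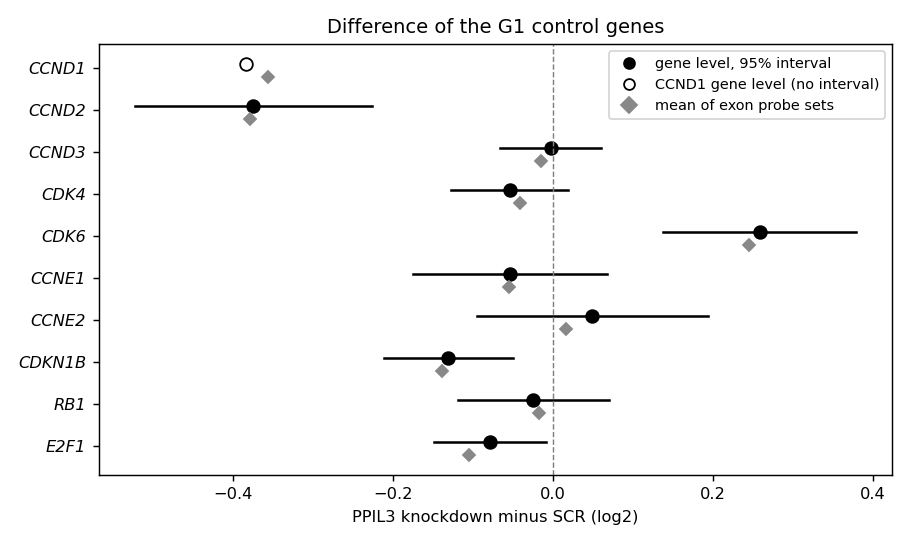
Difference in log2 signal, PPIL3 knockdown minus SCR, for each gene. Circles are gene-level values with 95% intervals from limma (CCND1, whose contrast chose the set, has no interval), and grey diamonds are the means of the exon probe sets, which lie near the gene-level values in all 10 genes.

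The array reads each gene through exon probe sets (PSR) and through probe sets that span a junction of 2 exons (JUC). Of the 316 probe sets of the 10 genes, 295 had a mean of at least 5, and the other 21 were left out of the tests (6 of CCNE2, 5 of CCND3, 4 each of CDKN1B and RB1, and 1 each of CCNE1 and CDK6). Limma called 0 of the 273 that belonged to genes other than CCND1 (smallest adjusted p = 0.154), against 0.00473% of 571167 probe sets. With a variance trend and robust moderation it called 2 of them, JUC12000351.hg.1 of CCND2 (adjusted p = 0.0316) and PSR12000582.hg.1 of CCND2 (adjusted p = 0.0381). The share of all probe sets called with those settings is not given here. The unadjusted p was under 0.05 in 41 of the 273 (15%), of which 17 belonged to CDK6 and 10 to CCND2, against 9.74% of all. Groups did not overlap in 39 that were lower and 20 that were higher, together 21.6% against 16.4% of all probe sets (8.08% lower and 8.36% higher). Of these, 11 of the lower ones were of CCND2 and 17 of the higher ones of CDK6. Probe sets of the same gene are not independent, so these shares do not speak for the genes as a set.

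CCND1 was read by 15 exon and 7 junction probe sets, all with a mean of at least 5. Of the 22, 17 were lower on every knockdown array than on any SCR array, against 8.08% of all probe sets. CCND1 was chosen for its lower signal on these same arrays, so this count describes the gene and tests nothing. The median difference was -0.46 over exon and -0.37 over junction probe sets. Among the exon probe sets, PSR11009400.hg.1 differed most. It was 10.38, 10.31 and 10.28 in SCR against 9.75, 9.43 and 9.76 in the knockdown, a difference of -0.68 with knockdown array 2 the lowest. The brightest, PSR11009402.hg.1, was 11.66, 11.52 and 11.51 in SCR against 11.11, 11.07 and 11.06 in the knockdown, a difference of -0.48.

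A further 7 exon probe sets of CCND1 lay in the same range. PSR11009393.hg.1 differed by -0.58, PSR11009404.hg.1 by -0.54, PSR11009399.hg.1 by -0.50, PSR11009396.hg.1 by -0.49, PSR11009391.hg.1 by -0.48, PSR11009392.hg.1 by -0.46 and PSR11009401.hg.1 by -0.45. Smaller differences without overlap were seen at PSR11009390.hg.1 (-0.30) and PSR11009398.hg.1 (-0.19). The 6 junction probe sets without overlap ran from -0.55 to -0.33.

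The remaining 5 CCND1 probe sets overlapped between the groups. Exon probe set PSR11009389.hg.1 was 9.41, 9.64 and 9.58 in SCR against 9.54, 9.50 and 9.61 in the knockdown, a difference of 0.0043. Exon probe set PSR11009397.hg.1 was 8.61, 8.55 and 8.54 in SCR against 8.37, 8.63 and 8.70 in the knockdown, a difference of 0.0029. Neither group was the higher one at these places, while most of the gene was lower in the knockdown. Junction probe set JUC11004848.hg.1 differed by -0.0097, PSR11009395.hg.1 by -0.06 and PSR11009385.hg.1, whose mean of 5.52 is close to the limit for testing, by -0.14.

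The splicing index takes from each probe set the mean that the exon probe sets of that gene had on the array. It differed by 0.36 at PSR11009389.hg.1, 0.36 at PSR11009397.hg.1, 0.35 at JUC11004848.hg.1 and 0.30 at PSR11009395.hg.1, without overlap between the groups. At PSR11009385.hg.1 it differed by 0.22, with overlap. The lowest index difference in the gene was -0.32, at PSR11009400.hg.1. Since the index subtracts the gene's own mean, a probe set that does not move in a gene that is lower takes a positive index. Positions of the probe sets were not used here, so none of them can be placed in intron 4 or assigned to form a or b.

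**Figure D3:**
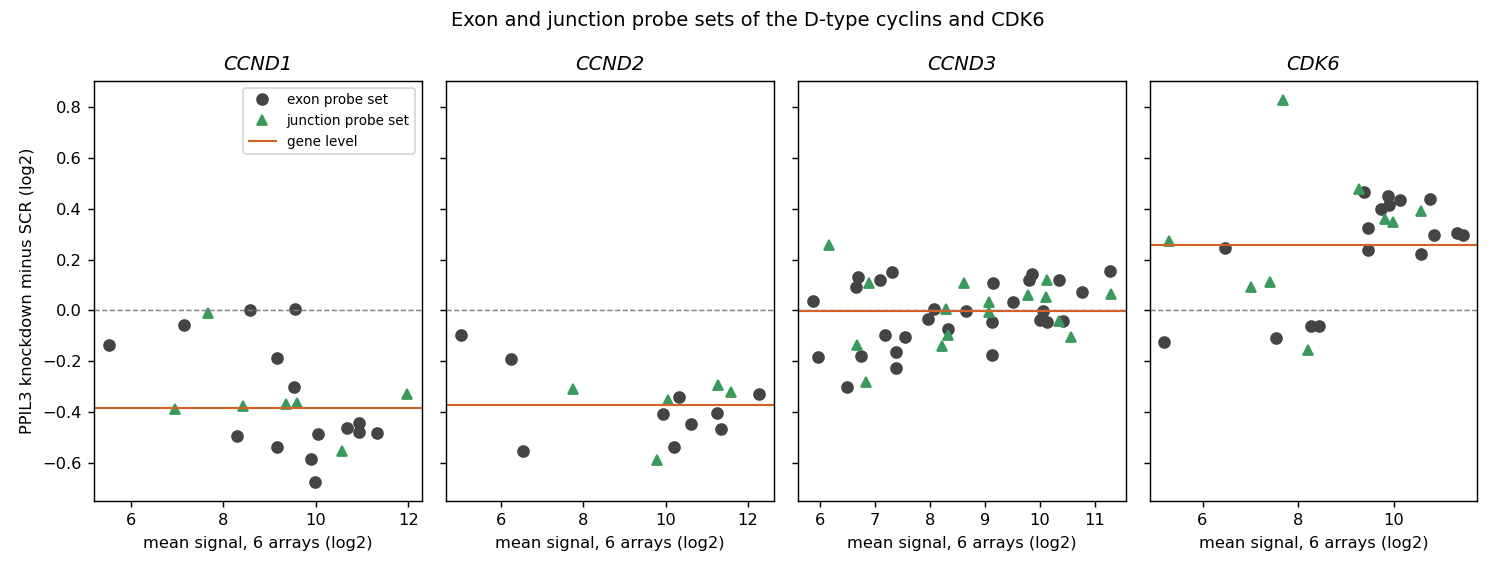
Difference in log2 signal, PPIL3 knockdown minus SCR, of every probe set with a mean of at least 5 in CCND1, CCND2, CCND3 and CDK6. Exon and junction probe sets are marked apart, and a line gives the gene-level difference. Most points of CCND1 and CCND2 lie below 0 and most of CDK6 above it, and the points of CCND3 spread to both sides of 0.

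CCND2 was read by 10 exon and 5 junction probe sets, and all 15 had a difference below 0. Groups did not overlap in 11 of them (8 exon and 3 junction), all lower, against 8.08% of all probe sets. These 11 ran from -0.59 to -0.29. The junction probe set JUC12000351.hg.1 was 10.04, 10.16 and 10.05 in SCR against 9.48, 9.59 and 9.42 in the knockdown, a difference of -0.59 (limma adjusted p = 0.154). It also had the lowest splicing index difference of the gene, -0.21. The brightest exon probe set, PSR12000574.hg.1, differed by -0.33, close to the gene as a whole. The highest splicing index difference, 0.28, belonged to PSR12000569.hg.1, whose mean signal of 5.01 is at the limit for testing. In CCND3, by contrast, groups overlapped in 45 of 45 probe sets, where 16.4% of all probe sets did not overlap. The medians were -0.0026 over exons and 0.02 over junctions.

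In CDK6 the probe sets were not alike. Of 26 tested, 12 exon and 5 junction probe sets were higher in the knockdown without overlap, against 8.36% of all probe sets. Over the exons they were higher by 0.22 to 0.47. The brightest exon probe set, PSR07024317.hg.1, was 11.25, 11.29 and 11.33 in SCR against 11.67, 11.57 and 11.53 in the knockdown, a difference of 0.30. JUC07012120.hg.1 had the largest difference, 0.83, from 7.18, 7.47 and 7.13 in SCR to 7.76, 8.49 and 8.01 in the knockdown. All knockdown arrays were above all SCR arrays there, and the splicing index difference of 0.58 was the highest in the gene (limma adjusted p = 0.579).

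At the far end of the numbering, exon probe sets PSR07024333.hg.1, PSR07024334.hg.1 and PSR07024335.hg.1 of CDK6 differed by -0.06, -0.06 and -0.11. PSR07024335.hg.1 was 7.59, 7.58 and 7.58 in SCR against 7.57, 7.37 and 7.49 in the knockdown, so it was lower on all knockdown arrays while the gene was higher. The junction probe set JUC07012123.hg.1 had the lowest splicing index difference of the gene, -0.40 (limma adjusted p = 0.564). Its signal was 8.19, 8.32 and 8.32 in SCR against 8.21, 8.25 and 7.90 in the knockdown, with overlap.

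The promoters of CDK6 and E2F1 are shown because CDK6 is the only gene of the set that was higher without overlap between the groups, though short of the threshold, and E2F1 is the only one with a match to the E2F motif among the 7 that had a promoter entry in the RefSeq table (GRCh38.p14). Each is the 250 bases before an annotated start, read on the gene's strand, with capitals at matches to the E2F motif (TTTNGCG or, on the other strand, CGCNAAA) and the GC box that SP1 binds (GGGCGG or CCGCCC). The CDK6 window is chr7:92836574-92836823 and that of E2F1 is chr20:33686386-33686635, both on the minus strand. A further CDK6 start in the table, with the window chr7:92833960-92834209, held 0 matches to either motif and is not shown.
CDK6: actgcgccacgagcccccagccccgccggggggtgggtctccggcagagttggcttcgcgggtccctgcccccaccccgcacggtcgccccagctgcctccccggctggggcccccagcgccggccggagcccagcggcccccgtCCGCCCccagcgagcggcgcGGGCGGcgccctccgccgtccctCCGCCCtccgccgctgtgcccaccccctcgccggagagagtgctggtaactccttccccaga
E2F1: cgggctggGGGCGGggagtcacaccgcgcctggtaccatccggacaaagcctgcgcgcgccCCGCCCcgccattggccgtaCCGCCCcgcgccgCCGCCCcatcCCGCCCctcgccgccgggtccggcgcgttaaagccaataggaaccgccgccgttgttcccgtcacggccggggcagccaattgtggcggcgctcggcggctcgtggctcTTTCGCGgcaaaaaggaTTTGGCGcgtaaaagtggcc
The E2F1 window held 2 E2F matches and 5 GC boxes, and the CDK6 window shown 0 and 3, with no match overlapping another. Of 35116 windows of the same length, 4.32% held an E2F match and 42.6% a GC box. A match is a run of letters in this window and was not tested as a binding site.

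Of the remaining genes, CDKN1B had 6 of 22 probe sets lower without overlap, all of them among its 17 exon probe sets, against 8.08% of all probe sets. The median over these 17 exon probe sets of CDKN1B was -0.18. Its brightest, PSR12002247.hg.1, was 10.81, 10.69 and 10.76 in SCR against 10.66, 10.43 and 10.65 in the knockdown, a difference of -0.18. Against this, junction probe set JUC12001058.hg.1 was 8.01, 8.13 and 8.001 in SCR against 8.53, 8.10 and 8.62 in the knockdown. It was higher on knockdown arrays 1 and 3 but not on array 2, and its splicing index difference of 0.51 (limma adjusted p = 0.579) was the highest in CDKN1B, JUC12001057.hg.1 having the lowest at -0.18 (-0.44 to -0.04 when each array was left out).

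CCNE2 held the lowest splicing index difference of the 10 genes, at exon probe set PSR08018705.hg.1. Its signal was 6.02, 6.51 and 6.30 in SCR against 5.72, 5.72 and 5.54 in the knockdown, a difference of -0.62, and the index differed by -0.63 (limma adjusted p = 0.508). The groups did not overlap there, although the gene as a whole did not separate them. The brightest exon probe set of CCNE2, PSR08018704.hg.1, differed by 0.05, and the highest index difference was 0.37 at JUC08009522.hg.1 (0.12 to 0.60 when each array was left out). The mean signal was 5.97 at PSR08018705.hg.1 and 5.26 at JUC08009522.hg.1, where 5 is the limit for testing. Of 38 CCNE2 probe sets tested, 3 were lower and 3 higher without overlap, against 8.08% and 8.36% of all probe sets.

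In CCNE1 the lowest index difference was -0.52 at JUC19003213.hg.1, which read 7.26, 7.25 and 7.32 in SCR against 6.86, 6.20 and 7.05 in the knockdown, lower on every knockdown array and by far the lowest on array 2 (index difference -0.24 without it). The brightest exon probe set of CCNE1, PSR19005439.hg.1, differed by 0.11 and had the highest index difference, 0.16. Of 24 CCNE1 probe sets tested, 5 were lower without overlap. E2F1 had 3 of 15 probe sets lower without overlap, RB1 6 of 63 and CDK4 4 of 25. The share over all probe sets, for CCNE1 as for these genes, was 8.08%. E2F1, RB1 and CDK4 had no probe set higher without overlap, against 8.36% of all. Their brightest exon probe sets differed by 0.03 (PSR20010357.hg.1 of E2F1), -0.02 (PSR13002177.hg.1 of RB1) and -0.09 (PSR12022083.hg.1 of CDK4), and that of CCND3, PSR06020645.hg.1, by 0.15.

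The extremes of the splicing index difference in these genes were -0.17 at JUC20005425.hg.1 and 0.27 at JUC20005426.hg.1 in E2F1, -0.38 at JUC13001372.hg.1 and 0.29 at JUC13001362.hg.1 in RB1, -0.31 at JUC12012169.hg.1 and 0.15 at PSR12022092.hg.1 in CDK4, and -0.29 at PSR06020626.hg.1 and 0.27 at JUC06009796.hg.1 in CCND3. Mean signals of 5.12 at JUC12012169.hg.1, 5.48 at JUC13001372.hg.1 and 5.76 at JUC20005425.hg.1 are close to the limit for testing. When each array was left out, the CDK4 value at JUC12012169.hg.1 ran from -0.78 without knockdown array 3 to -0.02 without knockdown array 2. The RB1 values ran from -0.55 to -0.11 at JUC13001372.hg.1 and from 0.14 to 0.53 at JUC13001362.hg.1, and that of CCND3 at JUC06009796.hg.1 from 0.13 to 0.39. That of JUC20005425.hg.1 turned its sign without SCR array 3 or knockdown array 2. Over the 9 genes besides CCND1, limma called 0 of 273 probe sets on the splicing index (smallest adjusted p = 0.508), and 0% of all 565705 tested. The unadjusted p was under 0.05 in 20 of 273 (7.33%), near the 7.42% of all, and the groups did not overlap in 48 of 273 (17.6%), against 13.4% of all.

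The genes around this core in the pathway gave 1 call, where 0.688% of all genes tested were called. Of 6 other CDK inhibitors tested, 0 passed, and their median difference was 0.04, with CDKN1A, the inhibitor p21, at -0.17 and CDKN2B, the inhibitor p15, at 0.12. Of 11 other G1 kinases and regulators, 0 passed, with a median of 0.03. CDC25A, the phosphatase that activates CDK2, was 9.62, 9.63 and 9.62 in SCR against 9.17, 9.43 and 9.25 in the knockdown, a difference of -0.34 (limma adjusted p = 0.0827). CKS2, a small subunit of CDK complexes, was 10.64, 10.61 and 10.50 in SCR against 10.84, 11.01 and 10.83 in the knockdown, a difference of 0.31 (adjusted p = 0.0891). Both separated the groups without passing the threshold.

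Downstream of RB1, 0 of 16 other pocket proteins, E2F and DP factors passed limma's test (median 0.0051; E2F2 at -0.17, LIN9 at 0.17). Of 20 E2F target and S phase genes, 0 passed, with 6 lower and 1 higher at an unadjusted p under 0.05 (6.62% and 8.82% of all genes) and a median of -0.02. MCM6, a subunit of the replicative helicase, had the lowest value, -0.26 (adjusted p = 0.138), and MCM4 of the same helicase the highest, 0.10. Of 16 genes of G2 and mitosis, 0 passed (median -0.0036), from -0.12 for CDC20, an activator of the anaphase-promoting complex, to 0.12 for CENPE, a kinetochore motor (0.04 without SCR array 1). The median over all genes tested was -0.0045.

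Upstream, 1 of 22 growth signal factors and targets passed, against 0.688% of all genes, with a list median of -0.0061. This list was chosen with earlier results of these data known. IRS2, an adaptor of the insulin and IGF receptors, was 9.76, 9.82 and 9.81 in SCR against 9.40, 9.37 and 9.31 in the knockdown, and every knockdown array was below every SCR array. It fell by 0.44 (SE 0.035; limma adjusted p = 0.0141, and 0.054 with the replicate number as a block). Without SCR array 1, 2 or 3 or knockdown array 3 the adjusted p was 0.0585, 0.133, 0.107 and 0.0577. MYC, a transcription factor that acts on cyclin genes, was 10.39, 10.27 and 10.29 in SCR against 10.68, 10.50 and 10.76 in the knockdown, a difference of 0.33 (adjusted p = 0.111). Both separated the groups.

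The ubiquitin ligases and kinases that act on G1 cyclins and p27 gave 0 calls among 16 (median 0.0085), from -0.10 for FBXW8, a subunit of a ligase that acts on cyclin D1, to 0.15 for FBXO4, a subunit of another. The 11 genes beside CCND1 on chromosome 11 gave 0 calls (median -0.01), from -0.13 for SHANK2 (-0.21 without knockdown array 1 and -0.04 without knockdown array 3) to 0.07 for FGF3. Of 11 splicing and RNA factors known to act on cyclin D1 transcripts, 0 passed (median 0.0016). ELAVL1, which binds AU-rich elements, had the lowest value at -0.02 and NUDT21, a subunit of the cleavage factor that sets the poly(A) site, the highest at 0.16 (limma adjusted p = 0.106). CDKN2C, CDK3, RRM1, BUB1B, HNRNPK and PTBP1 were among the listed genes that were not tested.

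**Figure D4:**
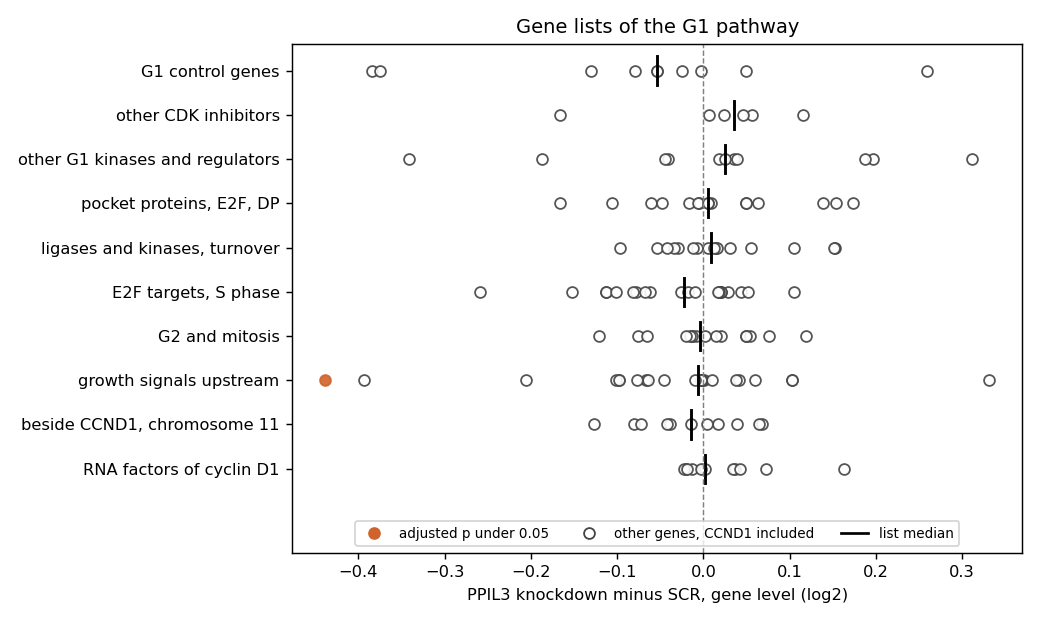
Difference in log2 signal, PPIL3 knockdown minus SCR, for each tested gene of the 10 lists, with the list median as a bar. IRS2, at -0.44 among the growth signal genes, is the filled point, and all list medians lie between -0.05 and 0.04.

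Over the 6 arrays, the genes whose signal followed that of CCND1 most closely were CNNM4 (Pearson r = 0.985), INPPL1 (0.978), SLC68A1 (0.978), TAPBP (0.974) and GSTP1 (0.971), among 1568 genes that varied enough to be compared. All arrays share 1 normalization, and the group difference enters each r, so these are given as a description. CNNM4 was 8.89, 8.78 and 8.74 in SCR against 8.60, 8.51 and 8.50 in the knockdown, with SCR array 1 the highest as for CCND1. After the group means were taken out, r was 0.903 for CNNM4, 0.756 for INPPL1, 0.841 for SLC68A1, 0.85 for TAPBP and 0.692 for GSTP1.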

How the data were processed

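Total RNA from the HEK293T lines was hybridized to Affymetrix Human Transcriptome Array 2.0 chips. The authors processed the arrays with Affymetrix Expression Console and RMA and deposited log2 values, 1 per transcript cluster and 1 per probe set. For tool versions and the genome build, nothing is stated in the sources used here. RMA makes the arrays' distributions equal, so a shift shared by most genes would not be seen.

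The 12 samples are 6 arrays summarized in 2 ways, since all 2995 rows found in both tables were identical between same-named samples, and the tables were not counted as separate replicates. Symbols were updated through RefSeq (306 changed), and the brightest cluster with 1 symbol stood for a gene. Gene level (19912 genes), probe sets (571167) and splicing index (565705 probe sets of 17729 genes, each with 3 or more exon probe sets retained) were each fitted with limma 3.58.1 (lmFit and eBayes, two-sided) in R 4.3.3, with a mean of at least 5 and Benjamini-Hochberg adjustment over all features at 0.05. The procedure was tested on simulated data. The data.table package 1.17.8, Python 3.11.15 and matplotlib 3.10.9 were also used. The number of arrays limits the precision.

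Same-numbered arrays deviated together from their group means (correlations 0.344, 0.157 and 0.141). SCR array 3 and knockdown array 2 correlated at 0.215, above the 0.157 and 0.141, so the pairing by number is uncertain. The main fits used the group only, and pairing by number entered as the replicate block among the alternatives. No label says what a number shares.

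The genes and lists were chosen with earlier results of these data known. Named are all 10 genes, in each further list the genes past the threshold or otherwise the highest and lowest, the brightest exon probe set and the extremes of the splicing index of each gene, all CCND1 exon probe sets and the 5 genes most like CCND1. Alternatives were a replicate block, a mean of at least 6 or none, other moderation, arrays centred on their medians, other gene levels, array weights and leaving out each array.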

Additional observations from a re-analysis of the deposited data

How the results depend on the processing

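The differences of the 9 genes besides CCND1 gave 0 calls at the gene level in limma, 1 with a mean of at least 6 (CCND2), 2 with exon means as gene level (CCND2 and CDK6) and 6 with array weights. How many of all genes were called with a mean of at least 6 is not given here. The probe sets of these 9 genes gave 0 calls, and 2 with a variance trend and robust moderation, whose share over all probe sets is not given here. The splicing index gave 0 calls in every alternative run. Over all genes, 137 were called, 32 with the replicate block, 4 without moderation of the variance, 481 (of 17729 genes) with exon means as gene level, 5967 with array weights and 1 to 68 when each array was left out (9, 5 and 1 without SCR array 1, 2 and 3, and 68, 59 and 12 without knockdown array 1, 2 and 3). The CCND1 difference lay between -0.42 and -0.32 without any 1 array and was -0.36 with exon means and -0.33 with array weights. The pairing of arrays by number changed the calls of IRS2 (adjusted p = 0.054) and EPCAM (0.0643) and no other call of a named gene or probe set that was tested. CCND1, which has no test here, is not counted in that. CDC25A passed without knockdown array 2 (adjusted p = 0.0427), with exon means (0.0194) and with array weights (0.0010).

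Signs turned for CCND3 (0.0039 with array weights, and -0.012 to 0.0064 when each array was left out), CCNE2 (-0.0031 with array weights, and -0.0086 to 0.10 when each array was left out), SHANK2 (0.053 with exon means), FGF3 (-0.0061 to 0.14 when each array was left out) and the splicing index of JUC20005425.hg.1 in E2F1 (-0.49 to 0.11 likewise). The cause was not tested in any of these. The number of arrays limits the precision of all values.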
